A study of Mus musculus with 24 samples.

Results

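The regions described here are the accessible stretches of chromatin around the 3 RUNX transcription factor genes, Runx1, Runx2 and Runx3, and around Cbfb, the gene of their shared partner. They were taken from 12 peak lists of ATAC-seq, an assay in which a transposase cuts and tags open chromatin. Peaks of all lists that shared at least 1 bp were joined into regions, and every region that overlapped the body of one of the 4 genes or the 50 kb on either side of it was kept. This gave 115 regions of the 134385 in the whole series, with 40 in the Runx1 window, 44 in the Runx2 window, 10 in the Runx3 window and 21 in the Cbfb window.

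The 5 skin lists came from back skin of male CD1 mice of the genotype K14rtTA; TRE-myc-Sox9, in which doxycycline (DOX) switches on SOX9, a transcription factor of hair follicle stem cells (HFSCs), in cells where the K14 promoter drives rtTA. Epidermal stem cells (EpdSCs) were sorted as CD49f-high and Ly6A-high cells without CD34 and without the endothelial, immune, melanocyte and fibroblast surface markers used for exclusion at postnatal day 21 before DOX (D0), on day 28 (W1), day 35 (W2) and day 63 (W6), and from grafted skin after 12 weeks (W12), so that W12 and the graft cannot be told apart. The other 7 lists came from cultured keratinocytes of male CD1 mice. The noDOX cells carried K14rtTA and TRE-myc-Sox9, as did the WT-SOX9 arm, and were not given DOX. The peaks over Sox9 exons differed between these lists, as given with the marker values below. The 6 other lists came from K14rtTA cells with 1 µg/ml DOX and 1 of 6 sets of TRE transgenes, and the labels give 3 days of DOX for replicate 1 of WT-SOX9, ΔHMG-SOX9 and ΔTA-SOX9. These sets were WT-SOX9, ΔHMG-SOX9 (without the DNA-binding domain), ΔTA-SOX9 (without the transactivation domain), AFOS (a dominant-negative FOS that blocks the AP1 factors), SOX9 with AFOS, and SOX9 with ARID1a, which belongs to the SWI/SNF complex that moves nucleosomes. By the study's methods, lentivirus delivered the 3 SOX9 versions, AFOS and ARID1a. In the arms that combine SOX9 with AFOS or ARID1a the cells already carried TRE-mycSOX9 as a mouse transgene, so the source of SOX9 differs from that of the WT-SOX9 arm. All 6 arms share the noDOX list as their control. The 2 samples of each group were merged before peaks were called, so each group is 1 list, no replicate error could be computed and no difference below carries a test.

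RUNX proteins bind DNA through their Runt domain and need CBFβ, which does not touch DNA itself, to bind it firmly. RUNX1 is known from blood formation and from hair follicle stem cells, RUNX2 from bone and RUNX3 from T cells and sensory neurons. Each of the 3 Runx genes has a distal promoter (P1) and a proximal promoter (P2), which give proteins with different starts, whereas Cbfb has a single promoter region.

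The start sites separated the genes before any change over time was considered. Regions covered the P2 start site of Runx1 and of Runx2 and the start site of Cbfb in all 12 lists, whereas no list had a peak within 1 kb of the outermost P1 start site of Runx1, Runx2 or Runx3, or of the Runx3 P2 start site. The 3 P1 promoters, taken from the RefSeq promoter table of GRCm38.p6 (300 bases around each start), share a pair of RUNX motif letters spaced by 2 bases. They are shown because none of them had a peak in any list, on the strand of the gene, with the letters ACCACA (the reverse complement of TGTGGT) in capitals.
Runx1 P1, chr16:92826025-92826054, minus strand: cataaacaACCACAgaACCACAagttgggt
Runx2 P1, chr17:44814583-44814612, minus strand: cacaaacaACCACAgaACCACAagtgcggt
Runx3 P1, chr4:135120503-135120532, plus strand: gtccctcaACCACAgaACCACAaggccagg

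Counted from the RefSeq start site of the table, which is not the outermost GENCODE start site used for distances elsewhere, the first letter of the pair lies 28 bases downstream in Runx1, 23 bases downstream in Runx2 and at -134 in Runx3. The pattern ACCACANNACCACA, searched on both strands and chosen after the single matches had been seen, occurs in 7 of the 32851 promoters of the table, or 0.0213%, and the other 4 belong to Gm12236, Gm15462, Olfr24 and Gm16225, the last of which is a noncoding gene in the Runx3 window. A single TGTGGT on either strand is present in 16.8% of promoters. The P2 promoters of Runx1 and Runx3 and the Cbfb promoter hold none of the motif letters searched. They are also the CpG-rich ones, with 35, 45 and 30 CpG in 300 bases, against 2, 2 and 8 in the P1 promoters of Runx1, Runx2 and Runx3. The Runx3 P2 promoter therefore had the highest CpG number of the 6 and no peak in any list. The RefSeq set had no entry for the Runx2 P2 promoter, which is thus not among the 6.

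At Runx1 P2 (chr16:92696570-92698985, 1 start site at 92697328, within the gene body of the longer transcript) the peak score was 43.1 in the D0 list, 52.2 at W1, 39.0 at W2, and then 28.1 (W6) and 33.0 (W12). The score is the authors' peak score, which appears to be scaled so that each list sums to about the same total. This was inferred from the values, and the study's methods say only that peak calling was normalized for depth. The score therefore compares a region's share of its list and not an absolute level. In culture the same region scored 34.4 without DOX, 39.3 with WT-SOX9, 35.7 with ΔHMG-SOX9, 23.3 with ΔTA-SOX9, 31.9 with AFOS, 45.4 with SOX9 and AFOS and 32.6 with SOX9 and ARID1a. It was the highest-scoring region of the Runx1 window in the D0, W1, W2, W6 and W12 lists.

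Runx2 P2 (chr17:44734547-44736704, over the start site at 44736648 and the first coding exon) was the weakest of the 3 open start sites, at 8.75, 8.81, 10.8, 9.85 and 6.65 from D0 to W12. In culture it scored 17.5 without DOX, between 12.4 and 14.3 with WT-SOX9, ΔHMG-SOX9 and ΔTA-SOX9, and was lower in the lists of AFOS (5.83), SOX9 with AFOS (6.74) and SOX9 with ARID1a (4.92). The nearest region to the Runx2 P1 start site at 44814797 was 29805 bp away. The start site of Supt3, a neighbouring gene that overlaps Runx2, lies inside the Runx2 body and had a stronger peak (chr17:44776746-44777982), at 37.1 at D0 and 26.6 at W12.

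The Cbfb start site (chr8:105170121-105171838) scored 24.6, 19.3, 16.4, 19.2 and 17.5 from D0 to W12. In culture it scored 36.6 without DOX, 52.7 with WT-SOX9, 30.0 with ΔHMG-SOX9, 25.6 with ΔTA-SOX9, 27.2 with AFOS, 47.4 with SOX9 and AFOS and 21.6 with SOX9 and ARID1a. Of the 6 arms, WT-SOX9 and SOX9 with AFOS were thus above noDOX and the other 4 below it.

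**Figure D1:**
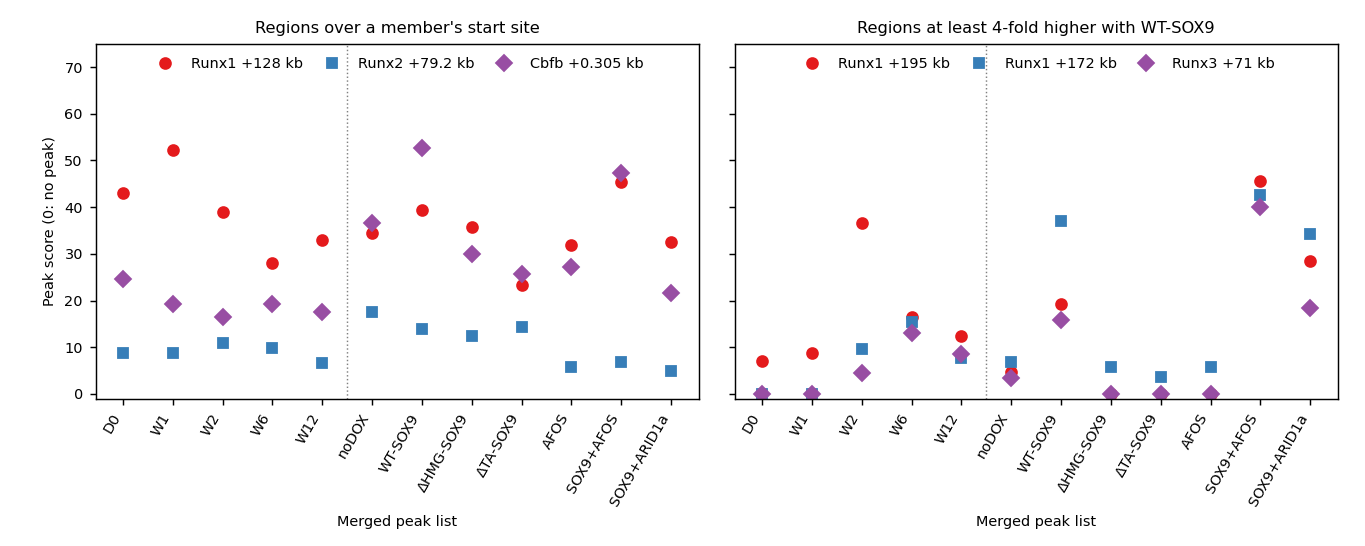
Peak score in each of the 12 merged lists (skin left of the dotted line, culture right; 0 means no peak), for the 3 regions over a start site of Runx1, Runx2 or Cbfb (left) and for the 3 regions whose score was at least 4-fold higher with WT-SOX9 than without DOX (right); each point is 1 list. The start sites had a peak in all 12 lists, whereas the 3 regions on the right scored 15.9 to 45.6 in the lists with WT-SOX9, SOX9 and AFOS or SOX9 and ARID1a and 0 to 6.92 in the other 4 culture lists.

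Over the skin time course the number of regions with a peak in the 4 windows fell from 39 in the D0 list to 33 at W1 and then was 59 (W2), 70 (W6) and 75 (W12). Over the whole series it was 54406, 55866, 59313, 71511 and 67851. The Runx2 window held 17, 10, 21, 30 and 31 regions at these times, the Runx1 window 14, 13, 22, 22 and 26, the Cbfb window 7, 8, 11, 12 and 10, and the Runx3 window 1, 2, 5, 6 and 8. The windows of the 3 Runx genes thus held their highest number at W12, and that of Cbfb at W6.

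**Figure D2:**
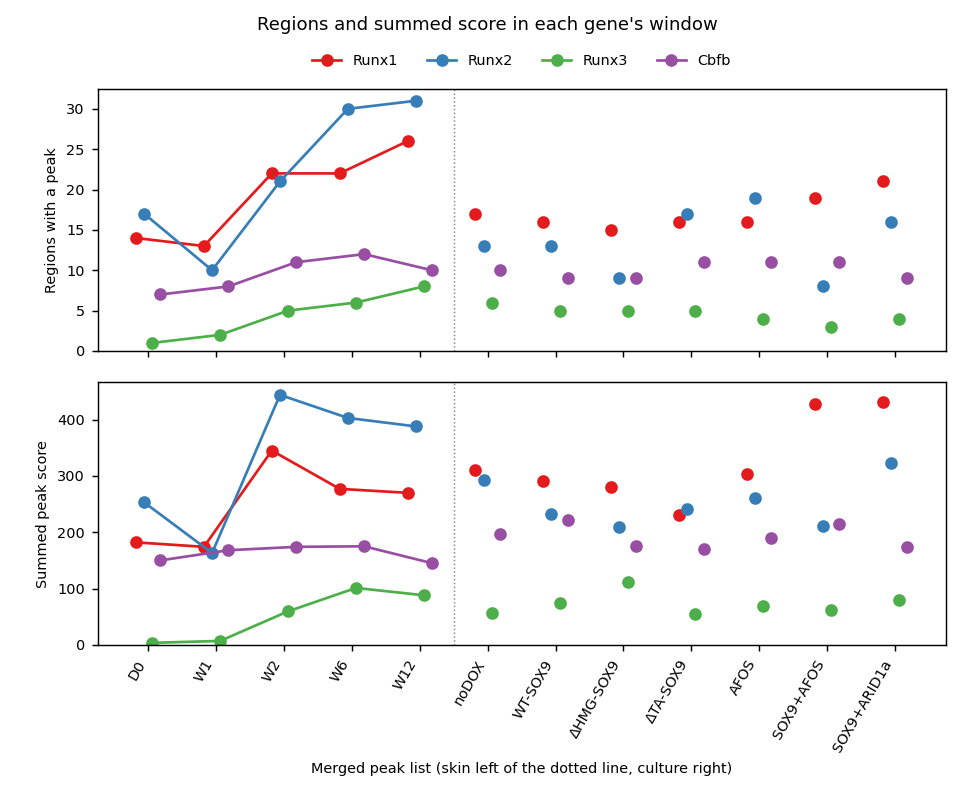
Number of regions with a peak (top) and summed peak score (bottom) in the window of each gene, for each of the 12 merged lists; the points of 1 list are set apart sideways for legibility and lines join the skin lists. The summed score of the Runx3 window was 3.46 in the D0 list, 6.90 at W1, 59.5 at W2, and then 101 (W6) and 88.0 (W12), while that of Cbfb stayed between 145 and 175.

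Of the 115 regions, 93 had a peak in skin. Regions with a peak at all 5 times (static) numbered 22 of the 93, or 23.7%, below the 38.2% of all skin regions. Regions that appeared at W2, having no peak in the 2 earlier lists, and held a peak in both later ones (gained by W2 and kept) numbered 18, or 19.4%, against 8.02% of all skin regions. Regions first present at W6 and kept at W12 (late) numbered 11, or 11.8%, against 6.90%. The late count was 7 with only scores of at least 5, and 5 with all lists cut to the 49458 peaks of the shortest. Regions present at D0 and absent from W2 on (lost by W2) numbered 3, or 3.23%, against 5.65%.

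The lists differ in how weak a peak they hold, which bears on these classes. The lowest −log10 q was 14.5 in the D0 list, 9.37 in that of W1, 4.21 in that of W2, 5.74 for W6 and 10.1 for W12. When all 5 skin lists were cut at the D0 minimum and joined anew, 8 regions of 75 were gained by W2 and kept, or 10.7%, against 3.76% of all regions. They lay in 7 of the 18 regions, since 1 Runx3 region fell into 2 pieces. The lost regions then numbered 6 of 75, against 14.6% of all regions, so their share was below the background here too. A larger share of cells with an open region and a more open region in each cell cannot be told apart in such bulk lists. The list labelled W1 lacked the peak confined to Sox9 exons that the D0 (score 13.5), W2 (15.1), W6 (9.22) and W12 (8.84) lists had, although all 5 skin groups carry the Sox9 transgene by their labels. The label of that list is thus in doubt, and each value at W1, each absence there and the step from W1 to W2 rest on it. Leaving out that list, an alternative chosen after the data had been seen, 20 regions were gained by W2 and kept, 29 were static, 3 lost and 11 late.

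**Figure D3:**
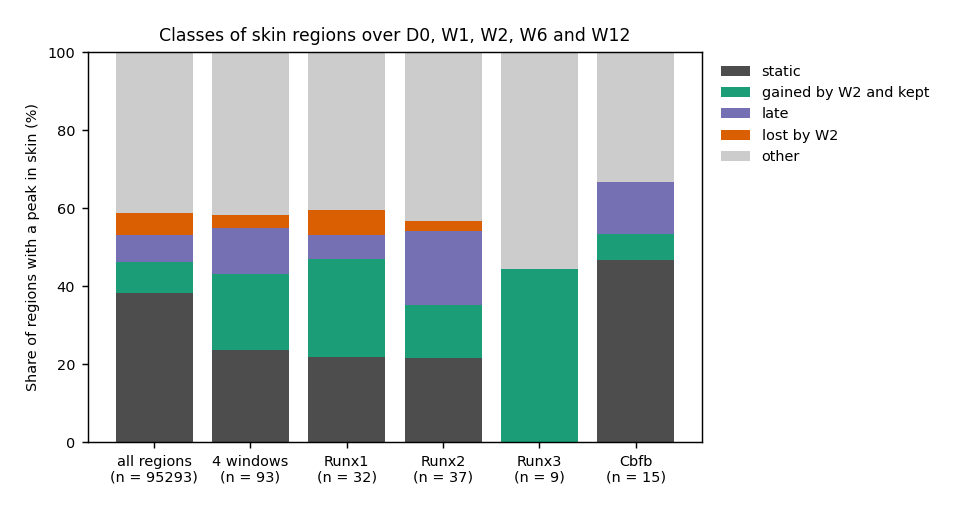
Share of skin regions in each class over D0, W1, W2, W6 and W12, for all regions of the series, the 4 windows together and each window; n is the number of regions with a peak in at least 1 skin list. Regions gained by W2 and kept (green) made up 44.4% of the 9 Runx3 regions and 6.67% of the 15 Cbfb regions, and Runx3 had no static region.

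In the Runx1 window 8 of 32 skin regions were gained by W2 and kept, 7 were static, 2 were lost and 2 were late. The most prominent gained region lay in an intron, 202 kb downstream of the P1 start site (chr16:92623604-92624392), and scored 31.4 at W2, 16.0 at W6 and 10.3 at W12 after no peak at D0 and W1. Its fold enrichment was 8.61 at W2 with a −log10 q of 62.1, so that it also passed the D0 minimum. Another gained region at the far end of the window (chr16:92549908-92553422), over the start of the noncoding gene Gm49722, scored 16.4, 15.8 and 9.34 at W2, W6 and W12.

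The gained region chr16:92653684-92655052, in an intron 172 kb downstream of the P1 start site, scored 9.66, 15.3 and 7.61. These 3 were the Runx1 regions that stayed in the class with the common q minimum. The other 5 scored at most 18.1 in skin, a value reached at W6 by chr16:92725267-92726007. One of them, chr16:92827839-92828925, was the region nearest to Runx1 P1, 1690 bp upstream of the start site, and scored 4.65, 6.85 and 4.19 at W2, W6 and W12.

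On the other side of the P1 start site, a late region (chr16:92823429-92823943) scored 4.35 at W6 and 3.36 at W12. Both regions beside P1 were therefore among the weak ones in skin. The 2 lost regions of Runx1 were intronic, at 4.65 and 3.86 (chr16:92667826-92668206) and at 6.51 and 13.8 (chr16:92777061-92777571) at D0 and W1, and had no peak in any culture list. The second of them lay beside a late region (chr16:92777831-92778429) that scored 3.58 at W6 and 3.91 at W12.

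Among the static Runx1 regions, an intronic region named for its values (chr16:92630943-92631960) rose from 6.96 (D0) and 8.71 (W1) to 36.7 at W2 and scored 16.4 and 12.3 in the later lists. Its log2 ratio of W2 over D0 was 2.40, the highest of the Runx1 window, where the median over the 11 regions present at both times was 0.88 and the median over all such regions of the series was -0.02.

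The Runx2 window had the most late regions, 7 of its 37 skin regions, beside 5 gained by W2 and kept, 8 static and 1 lost. With the common q minimum the late regions numbered 5 of 29 at Runx2 and 5 of 27 at Runx1, so that Runx2 no longer led, and those of the 4 windows 13 of 75, or 17.3%, against 5.63% of all regions. The late regions lay 96.0 to 346 kb downstream of P1 and scored between 3.39 and 10.2. The static intronic region chr17:44546884-44548645 scored 38.8 at D0, 71.7 at W2, 38.2 at W6 and 40.1 at W12, was lowest at W1, and was the highest of the window at D0 and W2.

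A pair of other Runx2 regions, also named for their values, rose steeply but fell outside the gained class because they had a weak peak at D0 and none at W1. The first (chr17:44500144-44500954, intron, 314 kb downstream of P1) scored 4.47 at D0 and had no peak at W1, and then scored 43.6 (W2), 53.2 (W6) and 52.4 (W12), a log2 ratio of 3.29 for W2 over D0. The second (chr17:44587568-44588549, intron, 227 kb) scored 6.18, 0, 69.6, 31.0 and 33.0, a log2 ratio of 3.49. These were the largest rises in the 4 windows among regions present at both times. In all, 7 regions of the 4 windows had this pattern of a peak at every time but W1, 5 of them in the Runx2 window and 2 in the Runx1 window. This was 7.53% of the 93 skin regions, against 3.31% over the series, and it rests on the list labelled W1.

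The gained regions of Runx2 were weaker. The strongest (chr17:44475812-44476533, intergenic, 339 kb downstream of P1) scored 11.1, 28.4 and 13.3 at W2, W6 and W12 and was the one that remained with the common q minimum. The lost region (chr17:44861180-44861827, in an intron of Supt3) scored 7.69 at D0 and 7.68 at W1.

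Runx3 was nearly without peaks before W2, with 1 region at D0 (score 3.46) and 2 at W1 (3.27 and 3.63). Its 4 gained regions flanked the gene at a distance, 3 upstream and 1 downstream of its body. The one at -47.0 kb (chr4:135073379-135073899) scored 18.9, 18.6 and 18.4 at W2, W6 and W12, and the one at -40.2 kb (chr4:135079668-135081156) scored 19.3, 34.8 and 19.3. These were the ones kept with the common q minimum. The region at -24.6 kb (chr4:135095683-135096522) scored 4.42, 12.3 and 10.4, and the region 71.0 kb downstream of P1 (chr4:135191225-135192080) scored 4.42, 13.0 and 8.57.

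Within the Runx3 gene body itself, the 3 regions found in any list were single peaks, at W12 (3.37 and 5.62) or W1 (3.27). Gained regions near Runx3 therefore lay outside the gene, whereas those of Runx1, Runx2 and Cbfb included intronic ones.

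Cbfb had the highest static share of the 4 windows, 7 of 15 regions or 46.7%, against 38.2% of all skin regions. Of these 7, 3 lay over start sites of the neighbouring genes D230025D16Rik, B3gnt9 and Fbxl8 with Tradd. Cbfb had no lost region, and 13.3% of its skin regions were late, against 6.90% of all skin regions. Its 1 gained region (chr8:105186250-105187127, intron, 16.0 kb downstream of the start site) was high at once, at 24.7, 23.0 and 22.5 at W2, W6 and W12. Another intronic region (chr8:105182012-105182762) was static and scored 33.7, 30.5, 33.3, 18.0 and 15.2. These neighbouring intronic regions thus had different courses, since the first was absent at D0 and W1.

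**Figure D4:**
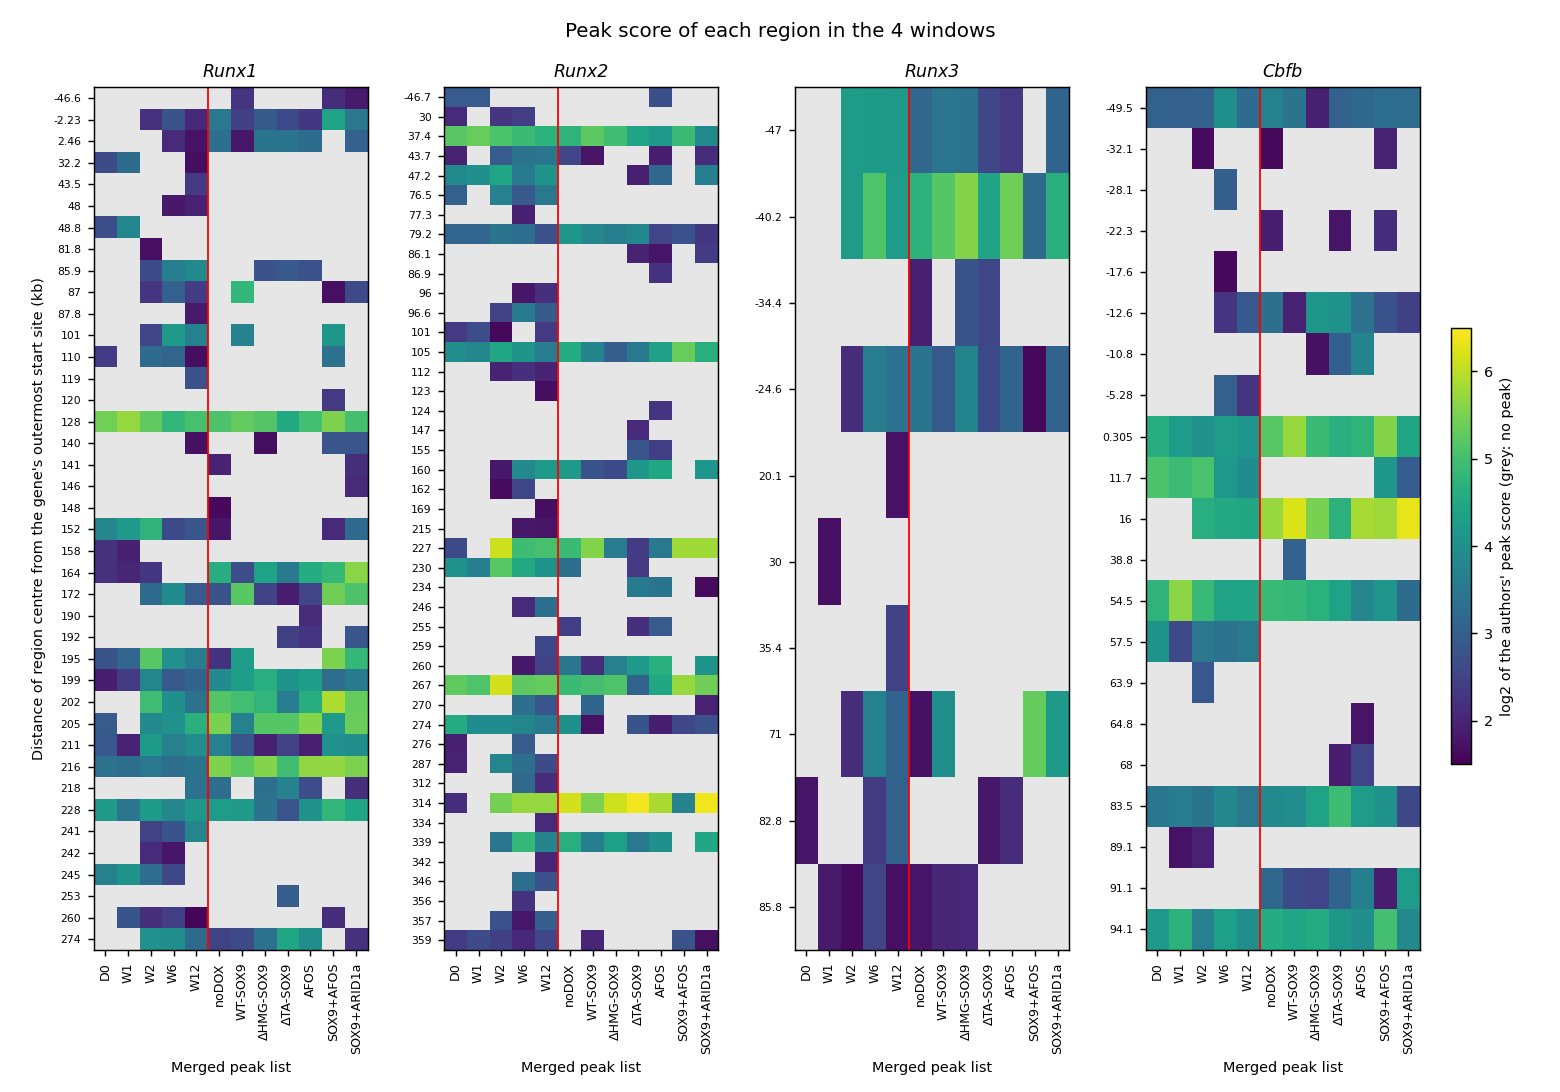
Peak score of each of the 115 regions (rows, ordered by the distance of the region's centre from the outermost start site of the gene, negative upstream) in each of the 12 merged lists (columns, skin left of the red line and culture right); colour is log2 of the score and grey means no peak. The static start-site regions appear at 128 kb for Runx1, 79.2 kb for Runx2 and 0.305 kb for Cbfb, and the upstream Runx3 regions are grey at D0 and W1.

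Many of the regions gained in skin were open in cultured keratinocytes without DOX. A noDOX peak was found for 11 of these 18, or 61.1%, against 36.5% of all regions of that class in the series. All 4 Runx3 regions were among them, as were the Cbfb region (noDOX score 52.7), 4 of 8 at Runx1 and 2 of 5 at Runx2. Of the late regions 3 of 11 had a noDOX peak, against 39.2%, and of the static ones 18 of 22, against 74.7%. The steeply rising Runx2 region chr17:44500144-44500954 scored 71.3 without DOX, the highest of the 4 windows in that list. Of all 115 regions, 41 had a peak in skin alone, or 35.7%, against 27.9% over the series, and 22 in culture alone, or 19.1%, against 29.1%. The 41 included 21 of the 44 Runx2 regions, or 47.7%, while the shares were 27.5% to 30.0% in the other 3 windows.

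WT-SOX9 was compared with noDOX to ask which regions SOX9 opens or closes in culture. There were 6 opened regions, out of 28 that were absent without DOX and present in at least 1 other culture list, or 21.4%, against 31.4% over the series. Of the 46 noDOX regions, 9 were absent with WT-SOX9, or 19.6%, against 27.9%. Neither count was thus above its background.

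All 6 opened regions had no peak with ΔHMG-SOX9, ΔTA-SOX9 or AFOS, which held for 78.3% of all regions opened by WT-SOX9. The strongest were both in the long Runx1 intron between P1 and P2. The region chr16:92738801-92739495, 87.0 kb downstream of P1, scored 27.9 with WT-SOX9, 3.24 with SOX9 and AFOS, 6.08 with SOX9 and ARID1a and 0 in the other 4 culture lists. The region chr16:92725267-92726007, 101 kb downstream of P1, scored 13.1 with WT-SOX9 and 17.6 with SOX9 and AFOS and 0 in the other 5.

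Both were also gained by W2 and kept in skin, which held for no other of the 6. Their central 200 bases (GRCm38, plus strand) are shown with any match to the 4 motif sets searched in capitals. The SOX set held the motif ACAATAG and also the motif ACAATGG. The RUNX motif searched was TGTGGT. The AP1 set held TGACTCA, which on the opposite strand reads TGAGTCA. The GATA motif searched was AGATAA. Each was searched on both strands, and no set contains another.
Runx1 +87.0 kb, chr16:92739049-92739248: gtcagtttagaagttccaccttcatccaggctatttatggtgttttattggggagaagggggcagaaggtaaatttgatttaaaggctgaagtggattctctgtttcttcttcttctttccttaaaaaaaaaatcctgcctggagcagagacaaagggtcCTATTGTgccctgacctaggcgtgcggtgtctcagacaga
Runx1 +101 kb, chr16:92725538-92725737: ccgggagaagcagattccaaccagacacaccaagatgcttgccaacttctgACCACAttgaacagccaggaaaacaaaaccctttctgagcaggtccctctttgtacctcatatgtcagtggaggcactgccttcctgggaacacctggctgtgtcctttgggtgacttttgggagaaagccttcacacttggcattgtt

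The first holds a SOX match on the minus strand and the second a RUNX match on the minus strand and no SOX match in its whole length. A SOX match in the central 200 bp was present in 1 of the 6 opened regions, against 16.6% of all regions opened by WT-SOX9 and 6.07% of all regions. A RUNX match was present in 3 of the 6, against 18.7% and 16.5%. With numbers this small these are descriptions.

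The other 4 opened regions were weaker. They lay at -46.6 kb of Runx1 (score 4.85), at 359 kb (4.10) and 270 kb (8.61) of Runx2 and in an intron of Cbfb at 38.8 kb (8.41). The one at 359 kb was static in skin, at 4.16 to 6.33, the one at 270 kb was late, and the remaining pair had no peak in skin.

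The 9 regions closed with WT-SOX9 were mostly weak without DOX, at 3.07 to 5.35 for 7 of them. The other 2 were an intronic Runx1 region (chr16:92608051-92608870), at 9.91 without DOX, and an intronic Runx2 region (chr17:44584464-44585285), at 10.2. The latter had a peak at all 5 skin times, highest at W2 with 36.6, and of the 6 arms it kept a peak with ΔTA-SOX9 alone (5.05). The Runx1 region kept a peak with ΔHMG-SOX9 (10.2), ΔTA-SOX9 (13.2), AFOS (6.43) and SOX9 with ARID1a (4.53), and had none with SOX9 and AFOS.

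**Figure D5:**
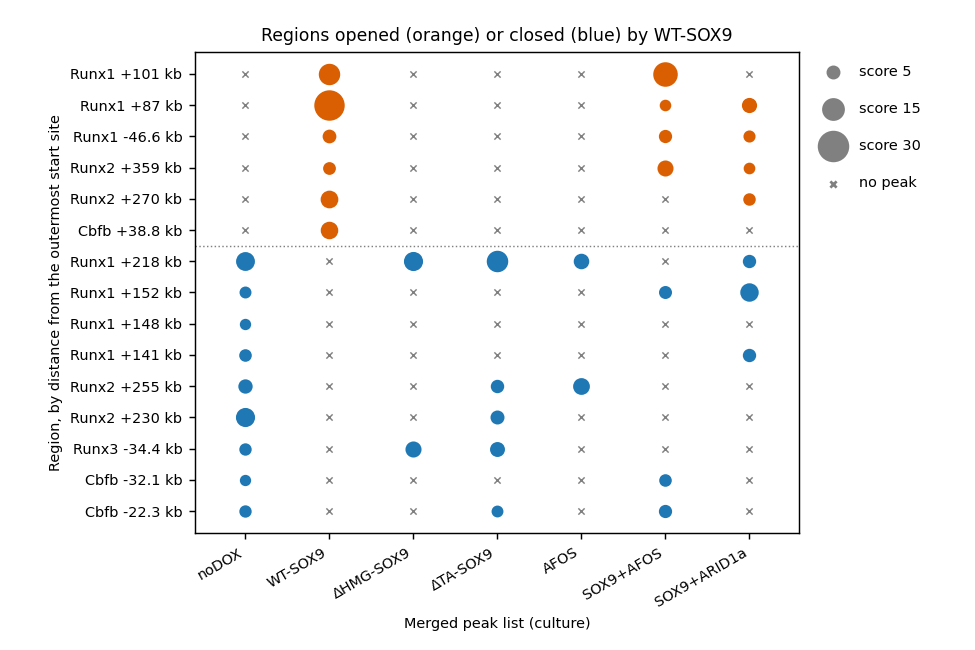
Peak score (area of the disc) in each of the 7 culture lists for the 6 regions opened (orange) and the 9 regions closed (blue) by WT-SOX9 relative to noDOX, named by gene and by distance of the region's centre from the outermost start site; crosses mark lists without a peak. The columns of ΔHMG-SOX9, ΔTA-SOX9 and AFOS hold no disc among the 6 opened regions, and the largest orange disc is the Runx1 region at 87.0 kb with WT-SOX9, at 27.9.

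Where a region had a peak in both lists, WT-SOX9 moved a few scores strongly. Among the 37 such regions of the 4 windows, 3 scored at least 4-fold higher with WT-SOX9, a bound chosen after the values had been seen, or 8.11%, against 1.39% over the series. They were the intronic Runx1 region at 172 kb, the intronic Runx1 region at 195 kb and the Runx3 region at 71.0 kb. The first (chr16:92653684-92655052) scored 6.92 without DOX, 37.1 with WT-SOX9, 42.7 with SOX9 and AFOS and 34.3 with SOX9 and ARID1a, but 5.76 with ΔHMG-SOX9, 3.70 with ΔTA-SOX9 and 5.82 with AFOS.

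The second (chr16:92630943-92631960) scored 4.70 without DOX, 19.2 with WT-SOX9, 45.6 with SOX9 and AFOS and 28.4 with SOX9 and ARID1a, and had no peak in the other 3 arms. The Runx3 region (chr4:135191225-135192080) scored 3.31, 15.9, 40.1 and 18.3 in the same lists and had no peak in the other 3 either. All 3 were thus high in each DOX-treated culture list with full-length SOX9 and low or absent in each other culture list. In skin, the Runx1 region at 172 kb and the Runx3 region were gained by W2 and kept, and the Runx1 region at 195 kb was the static region with the steep rise at W2. SOX letters were found in the Runx3 region, outside its central 200 bp, on the plus strand.
Runx3 +71.0 kb, chr4:135191732-135191818: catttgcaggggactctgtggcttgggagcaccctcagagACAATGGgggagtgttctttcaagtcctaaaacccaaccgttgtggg
Runx3 +71.0 kb, chr4:135191852-135191938: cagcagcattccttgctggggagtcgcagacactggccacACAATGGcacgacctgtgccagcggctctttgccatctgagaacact

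Among the 18 gained and kept, 5 held a SOX match somewhere in their length, or 27.8%, against 26.1% of all regions of that class. The Runx1 regions at 172 kb and 195 kb hold no SOX letters of this form. The share of regions with a SOX match in the central 200 bp was 6.09% in the 4 windows and 6.07% over the series.

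Scores that were lower with WT-SOX9 included those of 2 intronic Runx1 regions chosen on their values, chr16:92620624-92621618, from 45.2 to 12.9, and chr16:92661613-92663151, from 24.6 to 6.41, log2 ratios of -1.80 and -1.94. The first scored 36.3 with ΔHMG-SOX9, 36.4 with ΔTA-SOX9, 47.4 with AFOS, 18.1 with SOX9 and AFOS and 41.7 with SOX9 and ARID1a. The second scored 21.1, 11.6, 24.2, 28.5 and 48.8 in the same lists. The drop was thus not shared by all DOX-treated culture lists with full-length SOX9, since the second region was above noDOX in both combined arms. In the Runx2 window the median log2 ratio over 11 shared regions was -0.80, against -0.13 over the series. Of the 11, 3 were higher with WT-SOX9. The lowest ratio of the 4 windows, -2.26, was that of the static intronic Runx2 region chr17:44540538-44541453, from 16.0 to 3.33. That region was also below noDOX or absent in each other arm.

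In the arms with mutant SOX9, ΔHMG-SOX9 opened 3 of 28 regions against a background of 17.7% and closed 11 of 46 against 18.4%. ΔTA-SOX9 opened 11 against 32.2% and closed 8 against 19.2%. With AFOS alone 14 opened against 34.6%, 7 of them in the Runx2 window, and 10 closed against 17.3%. The shares in the 4 windows were 10.7% and 39.3% for opening with the mutants, and the AFOS list had the highest count of opened RUNX regions. Those at Runx2 scored 3.46 to 10.7, and the highest of them was chr17:44580237-44580830, which scored 10.7 with AFOS, 11.7 with ΔTA-SOX9 and 3.15 with SOX9 and ARID1a.

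The counts with SOX9 and AFOS differed between the Runx1 and Runx2 windows, but they are small and are descriptions. SOX9 with AFOS opened 7 of 12 absent Runx1 regions, or 58.3%, and 1 of 10 at Runx2, against a background of 31.2%. It closed 5 of 17 Runx1 regions and 6 of 13 at Runx2, or 46.2%, against 34.8%. Of these 6, chr17:44559911-44560372 and chr17:44584464-44585285 also closed with WT-SOX9. Of the Runx2 regions that closed, 3 kept a peak in each of the other 5 arms. They were chr17:44475812-44476533 (25.2 without DOX), chr17:44654334-44655047 (18.4) and chr17:44554889-44555392 (11.1). With AFOS alone they scored 16.0, 22.6 and 24.7. With WT-SOX9 they scored 12.4, 6.88 and 4.47, log2 ratios to noDOX of -1.02, -1.41 and -1.31, so they were also lower there.

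Of the 6 Runx2 regions closed in that list, 5 held an AP1 match in their central 200 bp, as did 8 of the 14 closed in the 4 windows, or 57.1%, against 35.4% of all regions that closed and 19.4% of all regions of the series. Across the Runx2 window as a whole the share with an AP1 match was 40.9%. None of the 9 regions opened in that list held one in its centre, against 4.46% of all regions opened there. The centres of these 3 Runx2 regions are shown on the plus strand with AP1 and GATA letters in capitals.
Runx2 +339 kb, chr17:44476073-44476272: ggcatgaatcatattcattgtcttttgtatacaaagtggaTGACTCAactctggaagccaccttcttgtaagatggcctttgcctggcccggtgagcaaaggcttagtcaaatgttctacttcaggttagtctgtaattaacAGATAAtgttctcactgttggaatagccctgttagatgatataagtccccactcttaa
Runx2 +160 kb, chr17:44654591-44654790: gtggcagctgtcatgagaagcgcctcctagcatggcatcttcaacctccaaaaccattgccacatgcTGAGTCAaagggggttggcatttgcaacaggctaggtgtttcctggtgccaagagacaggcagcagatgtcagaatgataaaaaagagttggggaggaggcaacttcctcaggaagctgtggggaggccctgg
Runx2 +260 kb, chr17:44555041-44555240: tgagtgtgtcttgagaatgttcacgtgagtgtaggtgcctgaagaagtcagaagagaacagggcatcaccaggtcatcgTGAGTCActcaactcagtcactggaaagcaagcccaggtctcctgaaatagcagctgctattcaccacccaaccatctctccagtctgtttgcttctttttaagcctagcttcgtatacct

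The strongest noDOX region of Runx2 (chr17:44500144-44500954), with a pair of AP1 matches outside its centre, did not close in any arm but scored 13.2 with SOX9 and AFOS, against 45.6 with WT-SOX9 and 57.9 with AFOS. Its log2 ratio to noDOX of -2.43 was the lowest of the Runx2 window in that arm.

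SOX9 with ARID1a opened 11 of 28 regions against 28.8% and closed 7 of 46 against 20.5%, with 1 closed of 17 at Runx1. In the Cbfb window the region with the highest ratio to noDOX lay in an intron of Tradd (chr8:105261531-105262034), at 9.13 without DOX and 19.3 there, a log2 ratio of 1.08. The Cbfb region gained in skin (chr8:105186250-105187127) scored 80.1, the highest of the window in any list, a log2 ratio of 0.60, and the static skin region chr8:105182012-105182762 had a peak (7.75) in culture in this list and with SOX9 and AFOS (17.8) only. The lists of AFOS, of SOX9 with AFOS and of SOX9 with ARID1a held 8, 7 and 12 peaks confined to exons of Arid1a past the first, against 0 or 1 in the other 9. The highest of these peaks scored 8.69, 7.86 and 38.2, and the single such peak with ΔTA-SOX9 scored 7.47. The lists labelled AFOS and SOX9 with AFOS thus held such peaks although their labels name no Arid1a transgene. The part of this in the values above was not tested.

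The genes around RUNX in its pathway did not show the excess of gained regions seen at the factors. For 17 cofactors (among them Tle1 to Tle5, Groucho-type corepressors, Ep300, a histone acetyltransferase, and Yap1, a Hippo effector), 14 of 244 skin regions were gained by W2 and kept, or 5.74%, and 120 were static, or 49.2%. For 16 known or candidate targets (among them Spp1, Sp7, Cd4 and Lef1), 12 of 175 were gained, or 6.86%, and 89 static, or 50.9%. Tle1 had the most gained regions of the cofactors, 4 of 10 skin regions, and opened 6 of 8 absent regions with WT-SOX9. With WT-SOX9, 28.7% of absent cofactor regions and 25.3% of absent target regions opened, and 23.8% and 26.8% of their noDOX regions closed, in each case below the backgrounds given above.

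Gene windows whose summed score followed that of a member most closely over the 12 lists were ranked by Pearson's r on log2(summed score + 1), among 16917 protein-coding genes with at least 5 regions. The 5 highest were Slc4a1ap, Capns2, Mrpl33, Kat6a and Etl4 for Runx1 (r of 0.955 to 0.939) and Defb6, Prune2, Rab32, Nmnat3 and Clvs1 for Runx2 (0.919 to 0.899). They were Slc7a14, Bpifb3, Bpifb4, Bpifa6 and Fam155a for Runx3 (0.946 to 0.937) and Fen1, Tmem258, Atl1, Fads1 and Epc1 for Cbfb (0.922 to 0.899). Slc4a1ap and Mrpl33, the Bpif genes, and Fen1, Tmem258 and Fads1 lie side by side, so their windows share peaks. The 12 lists share a scaling and the 7 culture lists a control, and the r are descriptions. Between members, r was 0.693 for Runx1 and Runx3, 0.542 for Runx1 and Cbfb, 0.424 for Runx2 and Runx3, 0.379 for Runx3 and Cbfb, 0.347 for Runx1 and Runx2 and -0.286 for Runx2 and Cbfb. The median r over all 16917 genes was -0.044 for Runx1, -0.170 for Runx2, -0.010 for Runx3 and 0.131 for Cbfb.

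The lists held 49458 to 75956 peaks each. All 7 basal epidermal markers had a peak within 1 kb of a start site in all 12 lists, with a summed score of 156 (D0), 174 (W1), 132 (W2), 126 (W6) and 161 (W12) in skin, so that the sum was lower at W2 and W6. Of the 7 immune markers Ptprc, Cd3e, Cd3g and Cd207 were at 0 throughout, and 0 to 3 of the 7 had a peak in any list, with a summed score of 0 to 11.5 in skin and 6.02 to 90.9 in culture, mostly from Csf1r. Of the 4 endothelial markers 0 to 3 had a peak, with a summed score of 0 at W1, 15.2 at D0 and 44.6 to 49.5 from W2 on. Cdh5 was at 0 in skin and Pecam1 gave most of the sum. In culture the endothelial sum was 28.4 to 77.0, with Pecam1 at 39.4 without DOX. The rise in skin ran beside that of the gained RUNX regions and its part in them was not tested. Of the 6 fibroblast markers Col1a2, Col3a1, Dpt and Lum were at 0 in all lists, while Col1a1 and Pdgfra had a peak in every skin list. Their summed score was 19.3 at D0, 27.0 at W1 and 38.2 at W2, and then 24.3 (W6) and 20.1 (W12), and at most 26.9 in culture. Of the 4 suprabasal epidermal markers 3 had a peak in every skin list, with a summed score of 18.3 at D0, 30.9 at W1 and 43.4 at W2, and then 27.7 (W6) and 25.5 (W12). The fibroblast and suprabasal sums were thus also highest at W2, and their part in the gained regions was not tested. Of the 5 melanocyte markers Kit and Tyr were at 0 throughout, and Pmel and Dct gave a summed score of 32.8 to 50.7 in skin. Of the 3 Merkel markers Krt20 was at 0 throughout, and Isl1 and Atoh1 summed to 34.8 to 53.8 in skin. The melanocyte sum was 47.6 (D0), 50.7 (W1), 44.9 (W2), 46.0 (W6) and 32.8 (W12). The Merkel sum was 50.9 at D0, 34.8 at W1 and 53.8 at W2, and then 38.4 (W6) and 36.5 (W12), so it was highest at W2, and its part in the gained regions was not tested either. Of the 6 HFSC markers 4 had a peak at D0, W1 and W2 and 6 at W6 and W12, where Cd34 and Lgr5 were added. Their summed score was 106 at D0, 89.3 at W2 and 85.6 at W6, the lowest of the skin lists, and was highest at W12. From D0 to W2, Lhx2 went from 24.4 to 13.3 and Krt15 from 21.2 to 9.99. Over the same step Nfatc1 went from 50.3 to 45.9, while Tcf7l1 rose from 9.94 to 20.1. In culture, 1 peak spanned Sox9 exons 1 and 2 in the lists of WT-SOX9, ΔHMG-SOX9 and ΔTA-SOX9 and in no other list. The noDOX, SOX9 with AFOS and SOX9 with ARID1a lists instead held peaks confined to later Sox9 exons, at most 3.71, 5.11 and 4.14. The construct signal of noDOX thus differed from that of the WT-SOX9 arm. Its bearing on the opened, closed and ratio values, which all use noDOX, was not tested.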

How the data were processed

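Per the labels, the authors made ATAC-seq libraries of 24 samples in 12 groups of 2, and their processing notes name Bowtie2 2.2.9, Picard 2.3.0, SAMtools 1.9, MACS2 2.1.1 and deepTools 2.5.4 with mm10 (GRCm38). Replicates were merged before peak calling, and the 12 deposited lists hold 1 peak score per peak. Per the study's methods, the authors normalized peak calling for depth with a threshold of 3; that the deposited score was scaled within each list is inferred from its values. The deposited skin lists add fold enrichment and the −log10 q-value of each peak; the culture lists hold neither, and their depth in reads is unknown. The labels call the 2 samples of a group biological replicates, and the methods give several male mice for each skin replicate.

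Peaks sharing at least 1 bp were joined with Python 3.11.15, numpy 2.4.6 and pandas 2.3.3, and genes were taken from GENCODE release 21 for mouse (GRCm38, protein-coding). A region is present in a list where that list has a peak, and its score is the highest of its peaks there. Motif letters were searched in the central 200 bp. Named regions are those over a member's start site, gained, lost or late in skin, opened or closed by WT-SOX9, or highest in a window, and all others were chosen after their values were seen. Peaks confined to exons were allowed 100 bp beyond either border. The code was tested on simulated peaks. The members and lists were chosen with earlier results of these data known. Alternatives were a score of at least 5, joining at 50% of the shorter peak, separate unions, lists of equal size, a common q minimum, other windows, whole-region motif search and likeness by peak number. No test was made, since each group is 1 list.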

Additional observations from a re-analysis of the deposited data

How the results depend on the processing

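The count of 115 regions was 74 in the union of the 7 culture lists alone and 74 for the gene bodies alone. The count of 18 regions gained by W2 and kept was 8 with the common −log10 q minimum and 9 for the gene bodies alone. The 3 regions lost by W2 became 7 with lists cut to the 49458 peaks of the shortest and 6 with the common q minimum, and the 11 late regions became 7 with a score of at least 5 and 5 with lists of equal size. The 6 regions opened by WT-SOX9 became 12 with 100 kb on each side. The 62 regions with a match to any of the 4 motif sets in their central 200 bp became 94 when the whole region was searched. Of the 5 genes most like each member by summed score, 0 remained among the 5 for Runx1, Runx2, Runx3 and Cbfb when peaks were counted instead. All other alternatives left these counts within 1.5 times; static regions ranged from 15 to 32 and closed regions from 6 to 11. The cause of these shifts was not tested, apart from fewer lists or a narrower or wider window. No paired analysis was possible because the replicates were merged before peak calling, and for the same reason none could be left out.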
